A study of Mus musculus with 11 samples.

Results

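The interstitial matrix is the meshwork of fibres, proteoglycans and glycoproteins that fills the space around epithelial structures, and the genes described here encode its main proteins and the enzymes that cross-link, cleave or protect them. The list held 45 genes out of 21951 annotated mouse protein-coding genes: 8 fibrillar collagens, 10 other collagens, 7 matricellular and adhesive glycoproteins, 5 elastic fibre genes, 5 lysyl oxidases, 3 proteoglycans, 5 metalloproteinases and 2 metalloproteinase inhibitors. A peak, a stretch of open chromatin, belonged to a gene if it overlapped the gene body or lay within 10 kb of one of its transcription start sites (TSSs). A promoter peak lay within 500 bp of a TSS. The 45 genes held 387 of the 153396 peaks, of which 45 were promoter peaks (of 16630 in all) and 342 were other peaks (of 136766). Of the 45 genes, 39 had a promoter peak and 44 had any peak. The genes without a promoter peak were Col1a1 (5 other peaks), Col3a1 (1), Col6a3 (12), Mmp3 (1), Mmp9 (3) and Lum, for which no peak was listed.

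Accessibility was measured by ATAC-seq, a transposase-based assay of open chromatin, in epithelium of pubertal mammary glands. The cells came from micro-dissected terminal end buds (TEBs), where the ductal tree grows, or from the ducts behind them, in females of the C57BL/6 strain aged 5 weeks, and all mice carried an E-cadherin-GFP reporter. Basal and luminal cells were gated as lineage-negative CD29+CD24+ cells with low and high E-cadherin-GFP. There were 3 basal TEB libraries, 2 basal duct libraries (replicates 1 and 3), 3 luminal TEB libraries and 3 luminal duct libraries. Tissue came from pooled mice, and 1 further basal duct sample was discarded by the authors for low cell number and is not analysed here.

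Libraries held 1821942 to 2489582 counts in peaks in basal TEB, 6816197 to 9986384 in basal duct, 2960093 to 3738324 in luminal TEB and 4650216 to 5561051 in luminal duct. The basal TEB libraries were the shallowest and the least alike, with Spearman correlations across peaks of 0.599 to 0.708 between replicates, against 0.811 to 0.943 between replicates of the other populations. The share of counts in promoter peaks was 31.1 to 35.7% in basal TEB and 40.0 to 42.7% in basal duct libraries. The promoters of all 8 basal epithelium markers were higher in basal duct over luminal duct, and those of 8 of 10 luminal markers were lower. In the basal duct libraries the 10 luminal marker promoters still summed to 193 to 222 CPM (counts scaled to a common library size with edgeR's TMM factors), against 352 to 435 CPM in the luminal duct libraries. Of 12 fibroblast markers, 6 (Clec3b, Dpt, Fap, Mfap5, Pi16 and Prrx1) had no promoter peak, and the other 6 summed to 21.7 to 36.3 CPM in basal TEB, 50.4 to 50.7 in basal duct, 23.0 to 23.6 in luminal TEB and 21.8 to 24.0 in luminal duct libraries. In these bulk samples, fewer accessible cells and less accessibility per cell cannot be told apart.

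Fibrillar collagens assemble into the rope-like fibres that give stroma its tensile strength, and lysyl oxidases cross-link them. Elastic fibres are built on fibrillin microfibrils, matricellular proteins such as thrombospondins and SPARC adjust how cells hold on to matrix, and metalloproteinases open paths through it while TIMPs restrain them. Fibroblasts are the best known source of most of these proteins, but myoepithelial cells of the mammary gland also make matrix, and remodelling around TEBs accompanies ductal elongation. Open chromatin at a gene is not its transcript level, and no transcript was measured here.

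Sequences of 8 peaks on which the results turn are given first, as 200 bases around the middle of each peak on the forward strand of GRCm38 (mm10). The Fbn1 (chr2:125505953-125506152) and Sparc (chr11:55419849-55420048) promoters were higher in basal cells in both structures and had the largest TEB fold changes among the member promoters. The peak upstream of Thbs1 (chr2:118110462-118110661) and the Loxl2 intron peak (chr14:69661465-69661664) were open in basal cells. The Col8a1 (chr16:57686136-57686335) and Timp2 (chr11:118349541-118349740) intron peaks were open in luminal cells. The Col27a1 intron peak (chr4:63311646-63311845) was open in basal duct cells and the peak upstream of Col14a1 (chr15:55302557-55302756) in basal TEB cells. Capitals mark matches, on either strand, of GGAATG (TEAD factors), TGANTCA (AP-1), TGTTTAC (FOX factors) and CAGGTG (the SNAI/ZEB E-box). None of these 8 stretches held TGTGGTT (RUNX factors) or the SRF CArG box, and the Fbn1 and Col14a1 stretches held no match.
Fbn1 promoter: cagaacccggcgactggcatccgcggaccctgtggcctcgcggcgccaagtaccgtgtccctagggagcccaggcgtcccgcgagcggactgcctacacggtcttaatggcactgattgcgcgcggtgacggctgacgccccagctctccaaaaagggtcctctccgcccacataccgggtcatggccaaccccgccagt
Sparc promoter: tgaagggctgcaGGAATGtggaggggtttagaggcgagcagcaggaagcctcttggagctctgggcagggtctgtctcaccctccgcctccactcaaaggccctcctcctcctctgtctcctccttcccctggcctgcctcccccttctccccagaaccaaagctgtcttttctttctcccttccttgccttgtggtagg
Thbs1 upstream: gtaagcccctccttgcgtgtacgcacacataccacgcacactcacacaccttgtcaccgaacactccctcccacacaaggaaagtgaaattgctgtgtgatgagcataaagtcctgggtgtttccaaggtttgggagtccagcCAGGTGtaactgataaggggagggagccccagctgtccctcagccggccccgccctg
Loxl2 intron: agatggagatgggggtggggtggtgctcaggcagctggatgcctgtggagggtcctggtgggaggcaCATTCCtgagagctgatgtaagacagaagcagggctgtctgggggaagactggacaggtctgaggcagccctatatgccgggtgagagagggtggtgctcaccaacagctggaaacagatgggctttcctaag
Col8a1 intron: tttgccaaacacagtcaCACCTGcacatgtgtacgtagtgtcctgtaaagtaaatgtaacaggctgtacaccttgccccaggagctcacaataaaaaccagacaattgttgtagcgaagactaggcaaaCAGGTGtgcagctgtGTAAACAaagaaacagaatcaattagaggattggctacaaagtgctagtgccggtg
Timp2 intron: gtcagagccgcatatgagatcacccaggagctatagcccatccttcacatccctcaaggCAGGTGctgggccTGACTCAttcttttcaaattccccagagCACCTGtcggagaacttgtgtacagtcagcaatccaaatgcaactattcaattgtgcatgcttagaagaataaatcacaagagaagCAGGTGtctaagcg
Col27a1 intron: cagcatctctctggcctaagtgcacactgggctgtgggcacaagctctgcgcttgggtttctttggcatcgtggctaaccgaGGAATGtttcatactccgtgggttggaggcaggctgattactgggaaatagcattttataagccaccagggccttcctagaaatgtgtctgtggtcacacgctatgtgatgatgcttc
Col14a1 upstream: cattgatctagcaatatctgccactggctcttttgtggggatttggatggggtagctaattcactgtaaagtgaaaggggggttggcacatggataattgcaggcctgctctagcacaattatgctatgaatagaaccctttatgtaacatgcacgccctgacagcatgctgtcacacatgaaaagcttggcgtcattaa

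Matches were counted in 300 bases around the centre of every peak, as a description. GGAATG was present in 9 of 45 member promoter windows, against 11.2% of all promoter windows, and in 30.4% of the members' other peaks (22.4% of all other peaks). TGANTCA was present in 54.5% of the 66 member peaks outside promoters that were lower in basal duct than in luminal duct, against 37.9% of all such peaks, and in 27.4% of the 197 that were higher, against 22.8%. TGTTTAC was present in 16.7% of those lower member peaks (12.9% of all such peaks) and in 3.05% of the higher ones (2.70%). CAGGTG was present in 23.7% of the members' other peaks and 23.8% of all other peaks. TGTGGTT was present in 7.31% and 8.48%, and the SRF CArG box in 0.877% and 1.65%.

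The first comparison set basal against luminal cells of the ducts. Matrix gene promoters were more accessible in basal duct cells: 40 of 45 promoter peaks were called higher (88.9%, against 43.8% of all promoter peaks tested) and 1 was called lower (2.22%, against 12.0%). By gene, 37 of 39 promoters were higher, that of Col5a3 was lower and that of Col8a1 did not pass the test. Over all genes with a promoter peak, 43.2% were higher and 11.1% lower, the shares to set beside the counts by role below. The median log2 fold change of the member promoter peaks was 1.82, against 0.35 over all promoter peaks. The sum over the 39 promoters was 816 and 725 CPM in the basal duct libraries, against 209, 218 and 211 CPM in the luminal duct libraries, so the populations did not overlap. Calls are from the edgeR exact test at a Benjamini-Hochberg adjusted p under 0.05 over all peaks. The basal duct libraries also carried the higher fibroblast marker sum given above, with 5 of the 6 measured fibroblast promoters called higher, and of 6 endothelial markers the 2 with a promoter peak, Kdr and Sox18, summed to 25.2 to 28.7 CPM in basal duct, against 4.45 to 7.31 CPM in luminal duct libraries. The 4 of 6 pericyte markers with a promoter peak summed to 30.5 to 36.1 CPM in basal duct, against 15.5 to 17.5 CPM in luminal duct libraries. Of these, Pdgfrb and Kcnj8 were called higher, while Notch3 and Rgs5 had log2 fold changes of -0.165 and 0.015. The 3 of 6 immune markers with a promoter peak summed to 24.5 to 26.1 CPM, against 22.9 to 24.1, with 1 called higher and 1 lower. The 2 of 6 adipocyte markers with one summed to 28.7 to 29.6 CPM, against 27.8 to 31.2, with 1 called higher. The part of these in the matrix result was not tested. Of the 38 genes called in either direction, 33 kept the call under every alternative that could be fitted, and the others were Col5a3, Col7a1, Col8a2, Loxl4 and Mmp11.

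**Figure D1:**
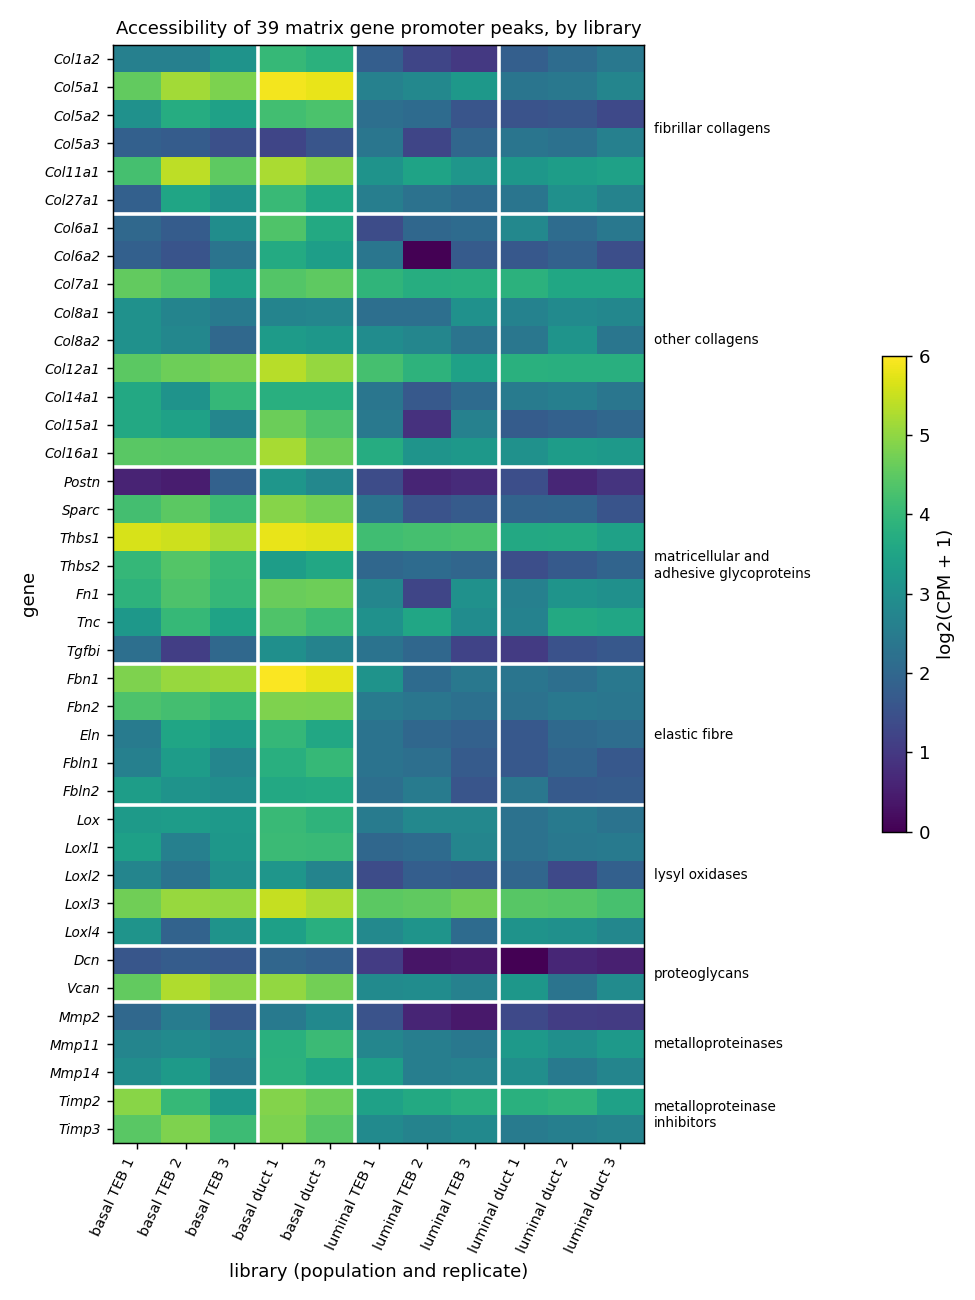
Accessibility of the promoter peak of 39 matrix genes (rows, grouped by role) in the 11 libraries (columns, by population), as log2 of CPM plus 1 on the colour scale. The basal duct columns were the brightest for 35 of the 39 genes by population mean, with Thbs2 and Vcan brightest in basal TEB, and Col5a3 and Col8a1 in luminal duct. The matching share over all genes was not taken, so nothing particular to matrix genes is read from this count.

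All 5 elastic fibre gene promoters were higher in basal duct cells. Fbn1 encodes fibrillin-1, the main microfibril protein, and its promoter peak (chr2:125504976-125507129, also within 500 bp of a TSS of Gm9913) had 61.6 and 53.6 CPM in basal duct, against 4.03, 3.54 and 4.3 CPM in luminal duct libraries (log2 fold change 3.8 ± 0.12 (SE), adjusted p = 2.4e-72). Fbn2, which encodes the developmental fibrillin-2, had 27.7 and 27.3 CPM in basal duct, against 3.82, 4.29 and 4.08 CPM in luminal duct libraries (log2 fold change 2.69 ± 0.04, adjusted p = 3e-31). For both fibrillins each basal duct library stood far above every luminal duct library. The promoters of Eln (elastin) and of the fibulins Fbln1 and Fbln2, which bind elastic fibres, had log2 fold changes of 2.10, 2.48 and 1.90.

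Among fibrillar collagens, 5 of 6 promoters were higher in basal duct cells. Col5a1 and Col5a2 encode type V collagen chains, which set the diameter of collagen fibrils, and the Col5a1 promoter (chr2:27885611-27887434) had 58.6 and 54.7 CPM in basal duct, against 4.03, 4.29 and 5.59 CPM in luminal duct libraries (log2 fold change 3.55 ± 0.14, adjusted p = 1.5e-66). Col5a2 had 17.1 and 18.6 CPM in basal duct, against 1.91, 2.05 and 1.5 CPM in luminal duct libraries (log2 fold change 3.21 ± 0.12, adjusted p = 8.9e-28), and the lowest basal duct library was again above the highest luminal duct library. Col11a1 (a type XI chain) and Col1a2 (a type I chain) had log2 fold changes of 1.83 and 2.01. Col5a3, another type V chain, ran the other way with 1.37 and 2.0 CPM in basal duct, against 4.03, 3.73 and 5.16 CPM in luminal duct libraries (log2 fold change -1.43 ± 0.25, adjusted p = 0.001), a call that did not hold without basal duct replicate 1. Col1a1 had no promoter peak by the 500 bp rule, but an exon peak centred 1.2 kb inside the gene had 35.5 and 35.6 CPM in basal duct, against 17, 15.5 and 16.6 CPM in luminal duct libraries (log2 fold change 1.06 ± 0.04, adjusted p = 4.9e-09).

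Of 9 other collagen promoters, 8 were higher in basal duct cells. Col15a1, which encodes a collagen that lies close to basement membranes, had 24 and 19.1 CPM in basal duct, against 2.33, 2.61 and 3.01 CPM in luminal duct libraries (log2 fold change 2.96 ± 0.19, adjusted p = 4.3e-29). Col12a1 and Col16a1, collagens that decorate fibril surfaces, had mean values of 35.8 and 30.1 CPM in basal duct cells, against 12.8 and 8.18 CPM in luminal duct cells, with log2 fold changes of 1.43 and 1.82. The type VI collagen genes Col6a1 and Col6a2, which form beaded filaments, had log2 fold changes of 1.74 and 2.21. Col8a1 encodes a network-forming type VIII chain and its promoter was not called, with 5.58 and 5.7 CPM in basal duct, against 5.3, 6.34 and 5.8 CPM in luminal duct libraries (log2 fold change -0.11 ± 0.07, adjusted p = 0.82).

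All 7 matricellular and adhesive glycoprotein promoters were higher in basal duct cells. Sparc, which encodes a collagen-binding matricellular protein, had 29.2 and 25.7 CPM in basal duct, against 2.76, 2.8 and 1.93 CPM in luminal duct libraries at chr11:55419578-55420319 (log2 fold change 3.38 ± 0.17, adjusted p = 1.1e-40). Thbs1 (thrombospondin-1, an activator of latent TGF-beta) had the highest mean promoter level of the 39 genes over the 11 libraries at 29.4 CPM, with 54.4 and 52.1 CPM in basal duct, against 11.2, 11.6 and 9.89 CPM in luminal duct libraries (log2 fold change 2.22 ± 0.07, adjusted p = 8.5e-35). No basal duct value of Sparc or Thbs1 came near the luminal duct values. Fn1 (fibronectin), Postn (periostin), Tgfbi and Thbs2 had log2 fold changes of 1.79, 2.69, 1.80 and 2.09, and Tnc (tenascin-C) 0.89.

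The promoters of the 5 lysyl oxidases, which cross-link collagen and elastin, were all higher in basal duct cells, with log2 fold changes of 0.64 for Loxl4 to 1.85 for Loxl1, and Lox had 15.7 and 13.9 CPM in basal duct, against 3.82, 4.48 and 3.87 CPM in luminal duct libraries (log2 fold change 1.8 ± 0.11, adjusted p = 5.9e-12). Loxl3 had the highest level of the family, with means of 40.1 CPM in basal duct and 19.7 CPM in luminal duct cells, at a peak it shares with the TSS region of Dok1. The metalloproteinase promoters of Mmp2 (a gelatinase), Mmp14 (the membrane-bound activator of Mmp2) and Mmp11 had log2 fold changes of 2.02, 1.04 and 0.83. The Mmp11 peak is shared with Chchd10. The inhibitors Timp2 and Timp3 had log2 fold changes of 1.05 and 2.19, and Timp3 lies within Syn3, so its peaks cannot be assigned to one gene. Among proteoglycans, Vcan (versican) had a log2 fold change of 2.17. Dcn (decorin, a small collagen-binding proteoglycan) had 2.91, at low levels of 2.96 and 2.62 CPM in basal duct, against 0, 0.56 and 0.43 CPM in luminal duct libraries.

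The same question was asked in TEBs, with basal TEB against luminal TEB cells. There 24 of 45 promoter peaks were called higher (53.3%, against 10.4% of all promoter peaks) and 1 was called lower (2.22%, against 14.7%). By gene, 22 of 39 promoters were higher and none was lower, and the lower peak was a second promoter peak of Loxl4. All 22 were also higher in basal duct over luminal duct, and 15 promoters were called in the ducts alone, a difference that was tested only through the interaction given further on. The median log2 fold change was 1.03, against -0.07 over all promoter peaks, and the promoter sum was 485, 560 and 472 CPM in basal TEB, against 239, 208 and 212 CPM in luminal TEB libraries. Here 1 of the 6 fibroblast marker promoters was called higher and 1 lower, and Kdr and Sox18 summed to 17.6 to 22.5 CPM in basal TEB, against 4.92 to 7.57 CPM in luminal TEB libraries. The 4 pericyte promoters summed to 19.9 to 27.1 CPM in basal TEB, against 17 to 21.7 CPM in luminal TEB libraries, and 1 of them, Pdgfrb, was called higher (log2 fold change 1.17, adjusted p = 0.025). Their part in the matrix result was not tested. Of the 22 calls, 14 held under every alternative, and those of Col12a1, Col15a1, Eln, Fbln1, Fbln2, Loxl2, Dcn and Mmp2 did not.

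**Figure D2:**
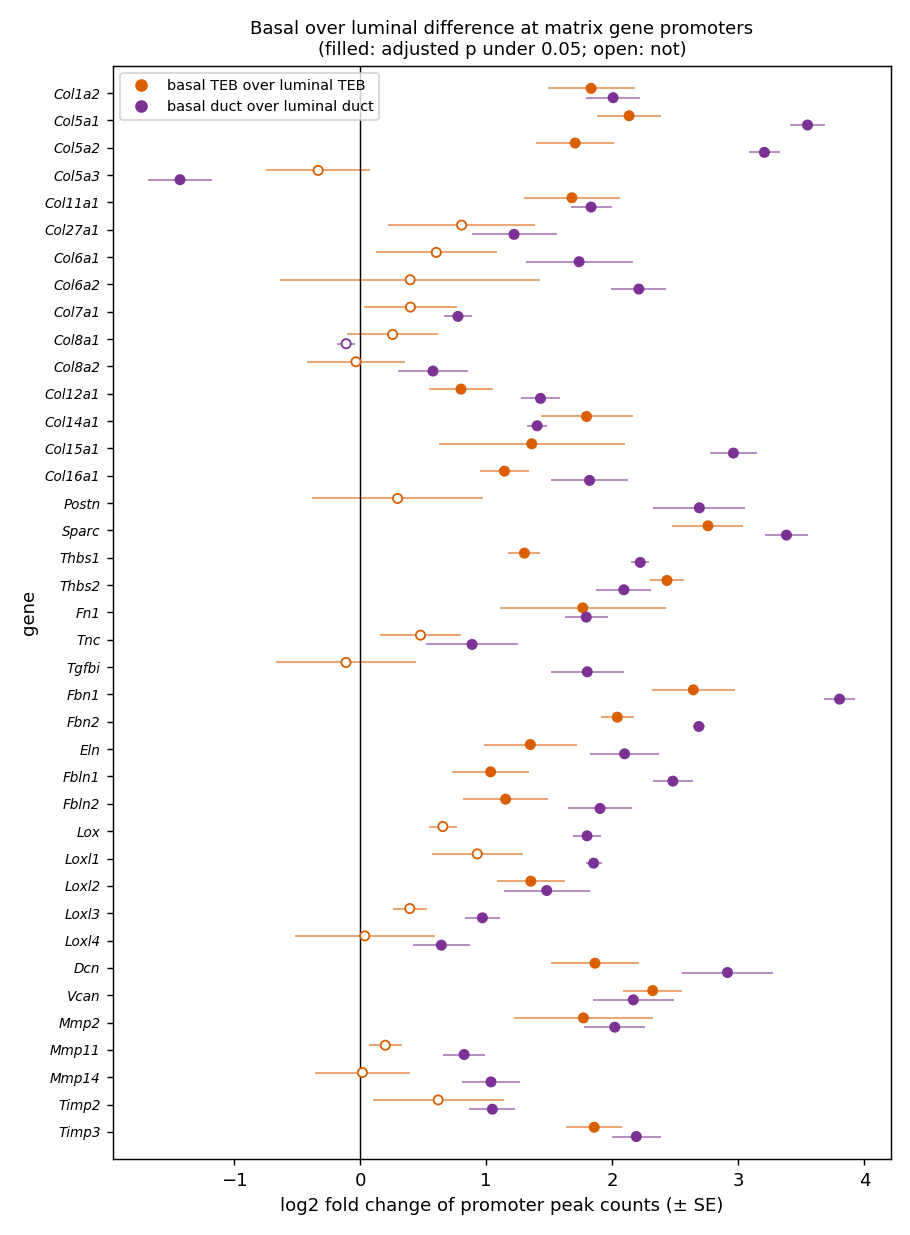
Log2 fold change of basal over luminal accessibility at 39 matrix gene promoters, in TEBs (orange) and in ducts (purple), with bars of ± SE between samples and filled points for an adjusted p under 0.05. Points lie right of 0 for 37 filled duct values and 22 filled TEB values, and Col5a3 in ducts is the filled point on the left.

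The TEB promoters with the smallest p included Fbn1, Vcan, Sparc and Thbs2. Fbn1 had 27.6, 32.5 and 34.1 CPM in basal TEB, against 7.41, 3.28 and 4.28 CPM in luminal TEB libraries (log2 fold change 2.64 ± 0.33, adjusted p = 1.3e-15). Sparc had 17.4, 21.5 and 16.4 CPM in basal TEB, against 3.84, 1.91 and 2.31 CPM in luminal TEB libraries (log2 fold change 2.76 ± 0.28, adjusted p = 2.4e-12), and in both genes the lowest basal TEB library was above the highest luminal TEB library. Vcan, the large hyaluronan-binding proteoglycan, had 22.5, 38 and 30.1 CPM in basal TEB, against 6.31, 6.56 and 5.27 CPM in luminal TEB libraries (log2 fold change 2.32 ± 0.23, adjusted p = 9e-13). Thbs2, a second thrombospondin, had 14.8, 19.96 and 15.5 CPM in basal TEB, against 3.02, 3.28 and 2.96 CPM in luminal TEB libraries (log2 fold change 2.43 ± 0.14, adjusted p = 6.4e-10). Vcan and Thbs2 were also the 2 genes with their highest population mean in basal TEB, with 30.2 CPM in basal TEB and 28.4 in basal duct for Vcan, and 16.8 CPM in basal TEB and 10.1 in basal duct for Thbs2. Neither of those TEB over duct differences passed the test (Vcan log2 fold change 0.09 ± 0.26, adjusted p = 0.94, Thbs2 log2 fold change 0.74 ± 0.19, adjusted p = 0.11).

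By role, the TEB lineage calls covered 4 of 6 fibrillar collagens, 4 of 9 other collagens, 4 of 7 glycoproteins, 5 of 5 elastic fibre genes, 1 of 5 lysyl oxidases (Loxl2), both proteoglycans, 1 of 3 metalloproteinases (Mmp2) and 1 of 2 inhibitors (Timp3). Over all genes with a promoter peak, 9.32% were higher in this comparison, so 1 call in a small role is not read as a trait of it. The lysyl oxidases Lox, Loxl1, Loxl3 and Loxl4 had log2 fold changes of 0.66, 0.93, 0.39 and 0.04. Mmp14 had 6.65, 8.61 and 4.43 CPM in basal TEB, against 9.33, 4.92 and 5.27 CPM in luminal TEB libraries (log2 fold change 0.02 ± 0.38, adjusted p = 1), with overlapping populations. Col6a1 and Postn likewise had log2 fold changes of only 0.60 ± 0.48 and 0.30 ± 0.68 (SE).

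Basal TEB cells were then compared with basal duct cells. Of the 45 member promoter peaks, 12 were called lower (26.7%, against 31.9% of all promoter peaks) and 0 were called higher (0.673%), with 1 higher at an unadjusted p under 0.05 and 0 by DESeq2. The members' median log2 fold change of -0.64 equalled the -0.64 of all promoter peaks, so the members did not stand apart by their median. Under TMM factors taken from promoter peaks, the median of all promoter peaks was 0.02, and 2 member promoter peaks were called lower and 2 higher. By gene, 11 promoters were called lower: Col1a2, Col5a1, Col5a2, Col6a1, Col6a2, Col15a1, Postn, Fbn1, Fbln1, Loxl1 and Mmp11. None of these 11 calls held without basal duct replicate 1. The fibroblast marker sum was 21.7 to 36.3 CPM in basal TEB and 50.4 to 50.7 CPM in basal duct libraries, with 1 of 6 promoters called lower, and its part in the matrix differences was not tested.

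The promoters that fell furthest below the promoter median were of type VI collagen and periostin. Col6a1 had 3.07, 2.35 and 6.65 CPM in basal TEB, against 19.5 and 11.6 CPM in basal duct libraries at chr10:76725731-76726459 (log2 fold change -1.96 ± 0.54, adjusted p = 0.0001). Col6a2 had 2.56, 1.96 and 3.99 CPM in basal TEB, against 11.7 and 9.24 CPM in basal duct libraries (log2 fold change -1.89 ± 0.30, adjusted p = 0.00053). In both, every basal TEB library lay below every basal duct library. Postn, whose product binds collagen and integrins, had 0.511, 0.391 and 2.66 CPM in basal TEB, against 7.86 and 6.01 CPM in basal duct libraries at chr3:54360918-54361219 (log2 fold change -2.53 ± 0.62, adjusted p = 0.00042). The size of the Postn change rests on basal TEB replicates 1 and 2, which were near the floor. Col6a1 and Postn kept their calls under every alternative other than leaving out basal duct replicate 1, the scaling from promoter peaks included.

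Further calls were for Mmp11 (5.62, 6.26 and 5.32 CPM in basal TEB, against 13.1 and 16 CPM in basal duct libraries, log2 fold change -1.33 ± 0.15, adjusted p = 0.0034), Col15a1 (11.2, 9.78 and 5.76 CPM in basal TEB, against 24 and 19.1 CPM in basal duct libraries, log2 fold change -1.28 ± 0.32, adjusted p = 0.0026) and Col5a1 (22.5, 34.8 and 27 CPM in basal TEB, against 58.6 and 54.7 CPM in basal duct libraries, log2 fold change -1.0 ± 0.19, adjusted p = 0.0041). In each of the 3 the TEB and duct libraries did not overlap, as at 28 of the 39 member promoters. The share over all promoters was not taken, so nothing particular to the members is read from this count. These 3 calls were lost with TMM factors from promoter peaks. Sparc, Thbs1, Timp3 and Col14a1 had log2 fold changes of -0.57, -0.29, -0.14 and -0.19 and were not called.

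**Figure D3:**
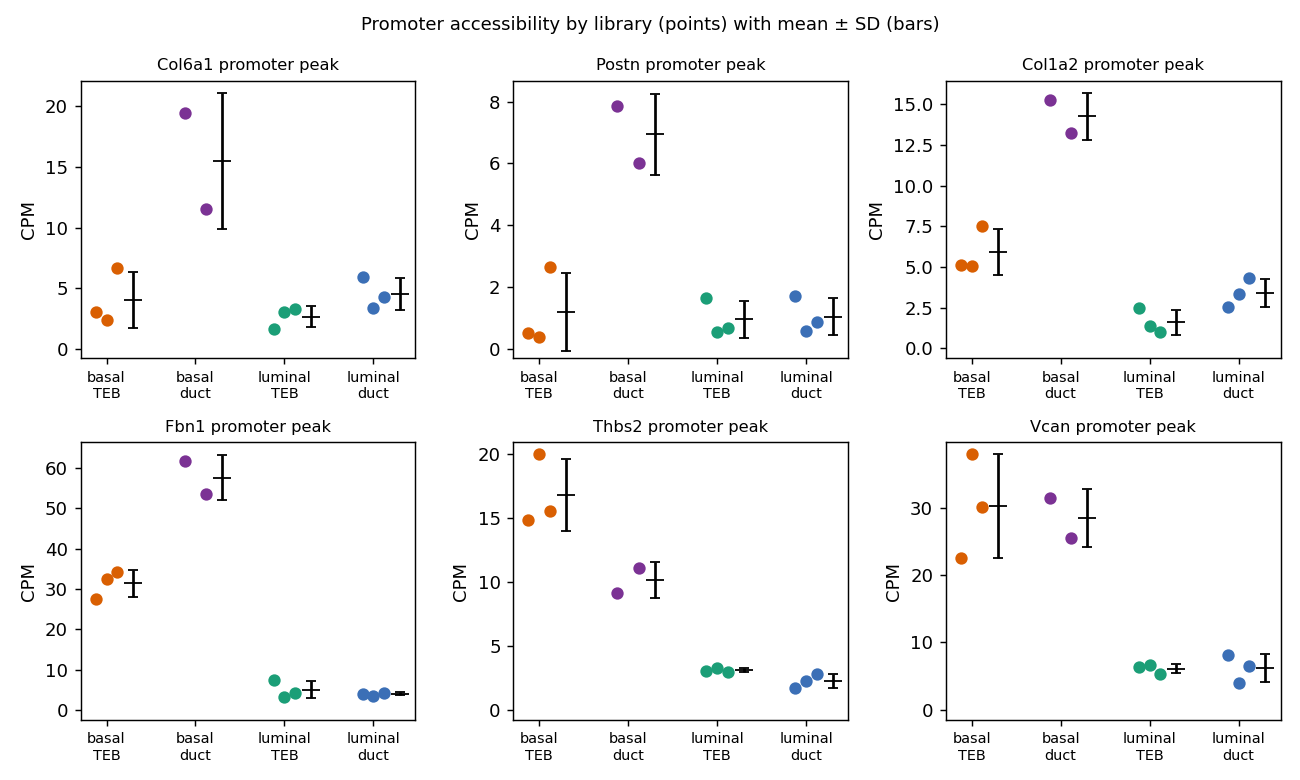
CPM of 6 member promoter peaks in each library (points) with the population mean ± SD (bars), for basal TEB, basal duct, luminal TEB and luminal duct. Col6a1, Postn, Col1a2 and Fbn1 were lower in basal TEB than in basal duct libraries, while Thbs2 and Vcan had their highest means in basal TEB.

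In luminal cells no matrix promoter passed the test between TEBs and ducts. No member promoter peak was called in luminal TEB over luminal duct by the edgeR exact test, with 0 higher (against 0.114% of all promoter peaks) and 0 lower (1.26%), while 1 higher and 2 lower had an unadjusted p under 0.05 and DESeq2 called 0 in either direction. The median promoter log2 fold change was 0.03, against -0.15 over all promoter peaks. The 1 higher was Thbs1, with 16.7, 17.8 and 18.4 CPM in luminal TEB, against 11.2, 11.6 and 9.89 CPM in luminal duct libraries (log2 fold change 0.69 ± 0.08, adjusted p = 0.08). Its luminal TEB libraries were all above its luminal duct libraries, and the 2 lower were Col1a2 and Mmp11, with log2 fold changes of -1.04 and -0.64. Of the other peaks, 1 was called higher (0.292%, against 0.335% of all other peaks) and 0 lower (0.357%, with 12 at an unadjusted p under 0.05 and 0 by DESeq2). That peak lay in an intron of Timp2 at chr11:118349444-118349838, with 16.2, 21.9 and 18.4 CPM in luminal TEB, against 9.54, 12.9 and 10.3 CPM in luminal duct libraries (log2 fold change 0.78 ± 0.17, adjusted p = 0.039). The call did not hold when any 1 luminal library was left out.

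The interaction asked whether the basal TEB over duct difference departed from the luminal one, by the edgeR quasi-likelihood test over 11 libraries. Of 42 member promoter peaks tested, 7 were lower (16.7%, against 13.9% of all promoter peaks) and 0 higher (1.08%, with 0 at an unadjusted p under 0.05 and 0 by DESeq2). They belonged to Col5a1, Col5a2, Col15a1, Thbs1, Tgfbi, Fbn1 and Fbln1. For Col5a1 the interaction on the log2 scale was -1.39, adjusted p = 0.0071. Its library values were 22.5, 34.8 and 27 CPM in basal TEB, 58.6 and 54.7 in basal duct, 5.21, 6.01 and 8.23 in luminal TEB and 4.03, 4.29 and 5.59 in luminal duct libraries. The basal duct libraries stood apart while the luminal populations were close together. The Col5a1 interaction was lost only with GC-bin offsets, and that of the other 6 was lost under 9 to 14 of 18 alternatives, among them leaving out basal duct replicate 1. Of 283 other member peaks tested, 7 were higher (2.47%, against 8.47% of all other peaks) and 32 lower (11.3%, against 5.39%), and without basal duct replicate 1 they were 0 and 12.

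**Figure D4:**
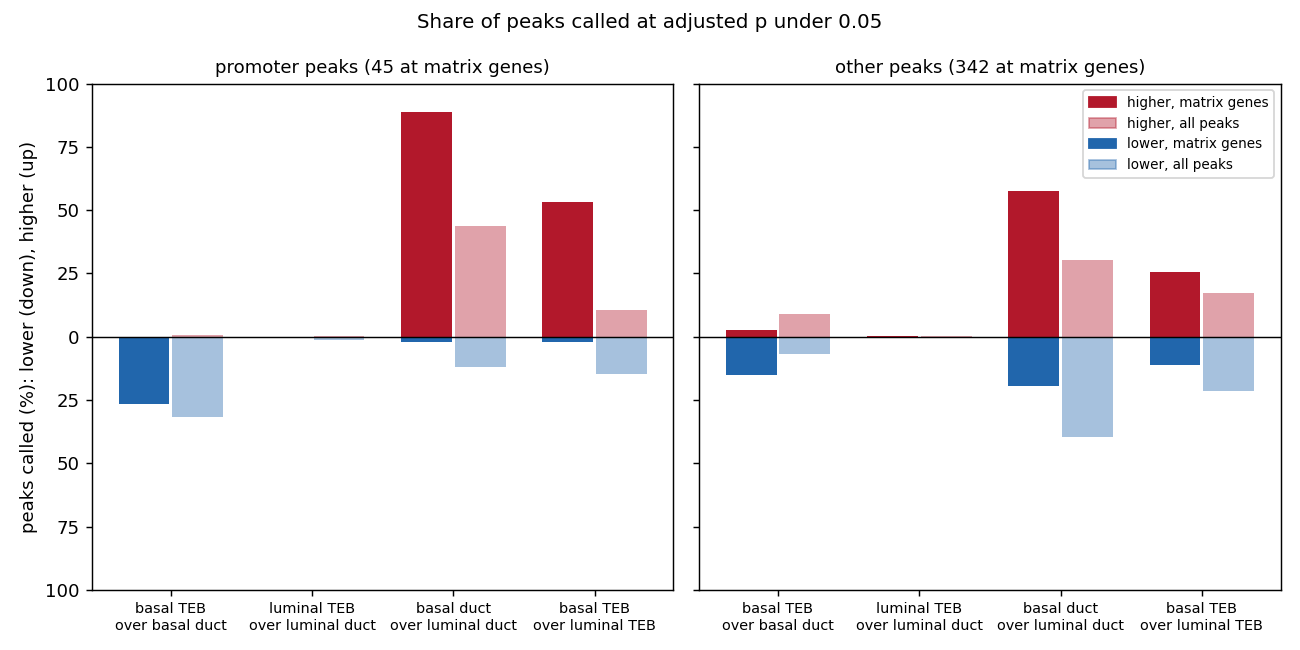
Share of peaks called higher (up, red) or lower (down, blue) in each comparison, for matrix genes (dark) and for all peaks of the class (pale), in percent of promoter peaks (left) and other peaks (right). In basal duct over luminal duct 88.9% of the matrix promoter peaks were higher, against 43.8% of all, and in basal TEB over luminal TEB 53.3%, against 10.4%.

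The 342 other peaks, of which 68.1% lay in introns, 15.8% touched exons and 16.1% lay outside the genes, included peaks of both directions. In basal duct over luminal duct, 197 were called higher (57.6%, against 30.3% of all other peaks) and 66 lower (19.3%, against 39.6%), and the median log2 difference was 1.24 (-0.29 over all other peaks). In basal TEB over luminal TEB, 87 were higher (25.4%, against 17.4%) and 38 lower (11.1%, against 21.5%). Of the members' other peaks, 80 were higher in basal cells in both structures, 31 were lower in both, and 2 were called in opposite directions. Called peaks of both directions occurred within 26 member genes in the ducts and 16 in the TEBs. The matching counts over all other peaks and over all genes were not taken, so nothing particular to these genes is read from them.

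As a description, the member promoter peaks were narrower and less accessible than promoter peaks at large. Their median width was 722 bp and median level 7.19 CPM, against 990 bp and 16.9 CPM for all promoter peaks, and the median GC content was 61.7%, against 60.0% for all promoter peaks. The members' other peaks had a median width of 366 bp, a median level of 2.86 CPM and 51.2% GC, against 319 bp, 2.64 CPM and 48.4% for all other peaks.

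The basal-open peaks with the smallest p lay in Thbs1, Col16a1, Fbln1 and Loxl2. The peak centred 1.3 kb upstream of Thbs1 had 65.1 and 52.7 CPM in basal duct, against 5.94, 6.9 and 4.73 CPM in luminal duct libraries (log2 fold change 3.26 ± 0.21, adjusted p = 2.4e-60). In Col16a1, a peak over an exon 7.2 kb from a TSS had 52.4 and 43.8 CPM in basal duct, against 5.72, 4.66 and 2.58 CPM in luminal duct libraries (log2 fold change 3.4 ± 0.33, adjusted p = 6.7e-57). Another at 8.2 kb had 32.1 and 30.2 CPM in basal duct, against 2.97, 2.98 and 1.5 CPM in luminal duct libraries (log2 fold change 3.56 ± 0.27, adjusted p = 1.2e-46), and at both Col16a1 peaks the basal values were the higher ones in every library. A peak in a Fbln1 intron, 61.7 kb from the TSS, had 29.3 and 30.2 CPM in basal duct, against 2.12, 1.12 and 0.645 CPM in luminal duct libraries (log2 fold change 4.44 ± 0.35, adjusted p = 3.5e-55). At each of these peaks both basal duct libraries were above all luminal duct libraries. In TEBs the Loxl2 intron peak 52.1 kb from the TSS had 19.9, 30.5 and 24.8 CPM in basal TEB, against 2.47, 1.37 and 1.65 CPM in luminal TEB libraries (log2 fold change 3.75 ± 0.27, adjusted p = 1.2e-20). A second Fbln1 intron peak at 27.9 kb had 12.8, 29 and 10.6 CPM in basal TEB, against 1.37, 0.273 and 0.329 CPM in luminal TEB libraries (log2 fold change 4.63 ± 0.60, adjusted p = 1.9e-16). This Fbln1 fold change rests on luminal TEB values near the floor.

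Of the 4 other peaks lower in basal duct over luminal duct with the smallest p, 3 lay in Col8a1 and the remaining one in Col27a1. Of 14 other peaks of Col8a1, 9 were called lower and 3 higher in basal duct over luminal duct. Over all other peaks, 39.6% were lower and 30.3% higher. Neither promoter peak of Col8a1 was called. The Col8a1 intron peak 68.5 kb from the TSS had 1.94 and 1.08 CPM in basal duct, against 25.9, 18.8 and 18.3 CPM in luminal duct libraries (log2 fold change -3.79 ± 0.35, adjusted p = 4.4e-37), and the peak 5.4 kb upstream had 0.456 and 0.308 CPM in basal duct, against 11.4, 11.2 and 13.5 CPM in luminal duct libraries (log2 fold change -4.93 ± 0.15, adjusted p = 2.3e-30). Another, 104.6 kb from the TSS, had 0.114 and 0.924 CPM in basal duct, against 7.85, 9.89 and 10.5 CPM in luminal duct libraries (log2 fold change -4.35 ± 0.64, adjusted p = 8e-22). In all 3 the luminal libraries were above the basal ones without overlap. The fold changes at 5.4 and 104.6 kb rest on basal duct values near the floor.

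Over all other peaks, 39.6% were lower and 30.3% higher in basal duct over luminal duct. The counts of each gene here are to be read beside these shares. Col6a3, a type VI collagen gene with no promoter peak, had 8 of 12 other peaks lower and 4 higher in basal duct cells. Col27a1, a fibrillar collagen gene, had 16 of 25 higher and 3 lower. Its intron peak 81.6 kb from the TSS had 1.03 and 0.616 CPM in basal duct, against 11.2, 9.14 and 9.24 CPM in luminal duct libraries (log2 fold change -3.57 ± 0.25, adjusted p = 3.4e-20). In TEBs it had 0.511, 0.391 and 0.443 CPM in basal TEB, against 9.6, 12 and 9.55 CPM in luminal TEB libraries (log2 fold change -4.42 ± 0.12, adjusted p = 1.5e-11). Every basal library there was below every luminal library of the same structure. The TEB fold change and its SE rest on basal TEB values near the floor. Timp2 had 7 of 15 higher and 6 lower, and its intron peak named above had 3.58, 0.783 and 3.55 CPM in basal TEB, against 16.2, 21.9 and 18.4 CPM in luminal TEB libraries (log2 fold change -2.87 ± 0.58, adjusted p = 1.6e-11). Timp2 overlaps Cep295nl.

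**Figure D5:**
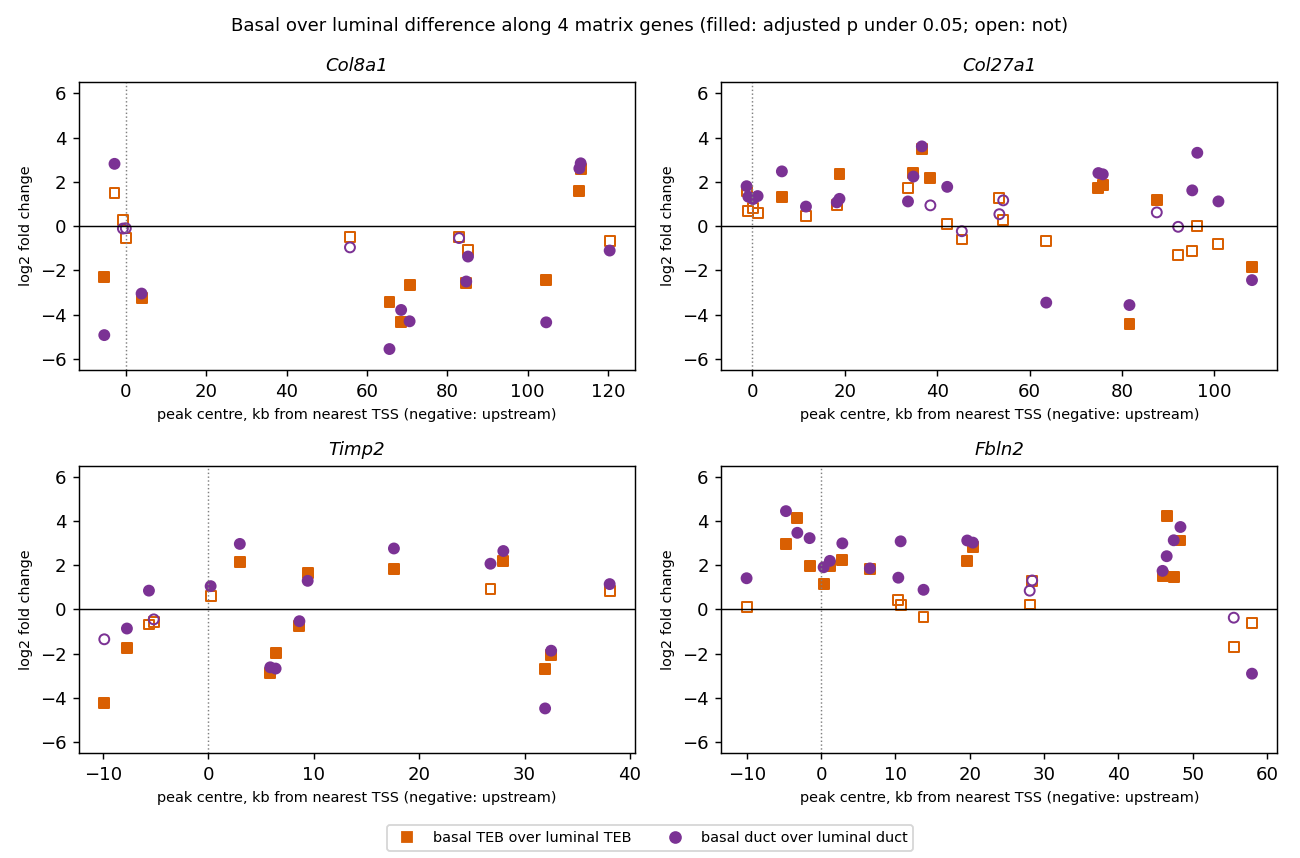
Log2 fold change of basal over luminal accessibility against the distance in kb of each peak centre from the nearest TSS, in ducts (purple circles) and TEBs (orange squares), for Col8a1, Col27a1, Timp2 and Fbln2, with filled symbols for an adjusted p under 0.05. Col8a1 peaks lie mostly below 0 away from its promoters near 0. Of the other peaks of Fbln2, 16 of 20 were higher in basal duct cells, against 30.3% of all other peaks.

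Between basal TEB and basal duct cells, 9 other peaks were called higher (2.63%, against 9.14% of all other peaks) and 52 lower (15.2%, against 7.03%). Without basal duct replicate 1 the counts were 0 higher and 7 lower, without basal duct replicate 3 they were 3 and 19, and without basal TEB replicate 3 they were 10 and 32. With TMM factors from promoter peaks they were 26 higher and 14 lower, so the balance of directions turned with the scaling. The lower peaks included a Col27a1 intron peak 96.3 kb from the TSS with 4.09, 3.13 and 2.22 CPM in basal TEB, against 27 and 21.3 CPM in basal duct libraries (log2 fold change -2.95 ± 0.28, adjusted p = 5.4e-11). A Fbn1 intron peak at 150.2 kb had 4.6, 6.65 and 3.55 CPM in basal TEB, against 24.2 and 23.9 CPM in basal duct libraries (log2 fold change -2.26 ± 0.24, adjusted p = 7.3e-08), and a Col15a1 intron peak at 22.5 kb had 6.13, 7.83 and 11.1 CPM in basal TEB, against 31.3 and 26.6 CPM in basal duct libraries (log2 fold change -1.79 ± 0.26, adjusted p = 4.4e-06). In each the basal duct libraries were above all TEB libraries. These 3 peaks were not called in basal TEB over luminal TEB, so the basal over luminal difference there was called in ducts only.

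A Col15a1 peak over an exon at chr4:47293362-47294792 had 4.6, 6.65 and 6.65 CPM in basal TEB, 36.2 and 24.2 in basal duct, 26.9, 40.7 and 31.3 in luminal TEB and 35, 43.9 and 23.2 in luminal duct libraries. It was lowest in basal TEB cells, over basal duct (log2 fold change -2.33 ± 0.33, adjusted p = 6.9e-09) and over luminal TEB (log2 fold change -2.44 ± 0.24, adjusted p = 1.9e-13), and its interaction on the log2 scale was -2.2, adjusted p = 5e-05. This call over basal duct, and those of the Fbn1 and Col15a1 intron peaks, held under every alternative run. Mmp2, Mmp14 and Vcan had 2 of 7, 4 of 6 and 2 of 6 other peaks lower in basal TEB than in basal duct cells. Col15a1, Col27a1 and Fbln1 had 6 of 17, 6 of 25 and 4 of 16. The share over all other peaks was 7.03%. The total of such lower calls over the members depended on scaling and on single libraries, as given above.

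The peaks higher in basal TEB were few and lay in Col6a3, Col7a1, Col14a1, Fn1, Fbn1, Fbln2 and Mmp3. The peak 5.1 kb upstream of Col14a1, a collagen of fibril surfaces, had 6.13, 11.3 and 10.6 CPM in basal TEB, 1.59 and 1.39 in basal duct, 0.823, 1.09 and 0.659 in luminal TEB and 0.636, 0.56 and 1.29 in luminal duct libraries (log2 fold change 2.63 ± 0.28, adjusted p = 1.1e-05 over basal duct). An exon peak 55.8 kb into Fn1 had 9.2, 7.83 and 7.98 CPM in basal TEB, 1.37 and 2.0 in basal duct, 2.47, 1.37 and 0.659 in luminal TEB and 0.848, 1.12 and 1.29 in luminal duct libraries (log2 fold change 2.31 ± 0.23, adjusted p = 9.7e-05). Every basal TEB library was above the other 8 at both peaks. The Fbln2 intron peak 46.5 kb from the TSS had 11.2, 23.1 and 16 CPM in basal TEB, 4.22 and 6.62 in basal duct, 0.823, 0.546 and 1.32 in luminal TEB and 1.27, 0.933 and 0.645 in luminal duct libraries (log2 fold change 1.66 ± 0.42, adjusted p = 0.00049), low in luminal cells and highest in basal TEB. The 1 peak of Mmp3, a stromelysin, had 3.58, 2.35 and 1.33 CPM in basal TEB, 0.342 and 0 in basal duct, 2.74, 4.37 and 3.62 in luminal TEB and 1.91, 2.42 and 2.58 in luminal duct libraries (log2 fold change 3.46 ± 0.52, adjusted p = 0.0065), lowest in basal duct cells. The size of the Mmp3 change rests on basal duct values near the floor. None of these 4 TEB calls held without basal duct replicate 1.

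Beyond the 45 genes, a list of 81 symbols of other matrix genes (2 of them older names of listed genes) had 65 promoter peaks. Of these, taken as 1 per gene, 47 were higher and 2 lower in basal duct over luminal duct, with a median log2 difference of 1.09. Over all genes with a promoter peak, 43.2% were higher and 11.1% lower. In basal TEB over luminal TEB, 21 were higher and 4 lower (9.32% and 14.9% of all genes with a promoter peak). In basal TEB over basal duct 21 were lower and 0 higher (34.8% and 0.564% of all genes with a promoter peak). Their median was -0.66, close to the -0.65 over all such genes. None was called in luminal TEB over luminal duct. The lower calls in basal TEB over basal duct, to be read beside the same 34.8%, were 9 of 19 collagen processing genes and 6 of 10 further elastic fibre genes. They were also 3 of 11 further proteoglycans, 1 of 8 further matricellular genes and 2 of 17 further proteases and inhibitors. They included Adamts2 (a procollagen N-proteinase) and Plod2 (a lysyl hydroxylase), at log2 fold changes of -1.87 and -1.31, and Ltbp2 (a latent TGF-beta binding protein) and Emilin2, at -1.57 and -1.47. In TEBs the small proteoglycan genes Fmod (fibromodulin) and Prelp had log2 fold changes of 4.29 and 2.06 for basal over luminal cells. The Fmod value rests on luminal TEB libraries near the floor, at 0.274, 0 and 0.329 CPM, against 4.09, 3.52 and 6.205 CPM in basal TEB libraries.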

How the data were processed

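The authors aligned reads to mm10 with Bowtie2, given as version 2.3.4.3 in the submitters' processing notes, called peaks with MACS2 on pooled replicates of each population, merged them, removed blacklisted regions and counted reads per peak. The deposited values are these raw counts, for 153396 of 153682 listed peaks in 11 libraries of 1821942 to 9986384 counts. There were no molecular identifiers, and the authors removed duplicate reads before calling peaks. Because peaks were called on pools, whether a peak was called in single libraries is not known here.

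TSSs were 41421 positions of protein-coding transcripts in the GENCODE vM21 basic annotation. Where a gene had several promoter peaks, the one with the highest mean log2 CPM stood for the gene. Counts of each pair of populations were compared in R 4.3.3 with the edgeR 4.0.16 exact test after TMM scaling, over all peaks with at least 1 count, and called at a Benjamini-Hochberg adjusted p under 0.05. The interaction used edgeR's quasi-likelihood test on filtered peaks of 11 libraries. SEs, between samples, used log2 CPM at prior count 2. The procedure was tested on simulated data. Values are given for the called peaks that ranked first by p in each direction (6 promoter and 4 other peaks a pair, 4 of each for the interaction) and the 2 highest promoters of each role, and further members were chosen after their values were seen. Members and lists were chosen with earlier results of these data known. Alternatives were other scalings and filters, DESeq2 1.42.0, loess and GC-bin offsets, a replicate block, other windows and leaving out each library. The labels do not say whether libraries of the same replicate number came from the same pool of mice. Same-number correlations of deviations were -0.0008 to 0.0792, and different-number ones -0.0567 to 0.0155. These cannot decide it, since counting noise draws such correlations towards 0. Samples were therefore not paired in the main tests. No libraries were duplicates. Motifs were searched on both strands. The p-values measure spread between pools of mice, which may include technical spread.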

Additional observations from a re-analysis of the deposited data

Results flagged for a closer look

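At 11 member peaks (of 46 past the test), those at gene promoters or of smallest p, the basal TEB over duct difference departed from the luminal TEB over duct difference by the edgeR quasi-likelihood test. At promoter peaks the difference of differences on the log2 scale was -1.39 for Col5a1, -1.48 for Col5a2, -1.57 for Col15a1, -0.905 for Thbs1, -1.91 for Tgfbi, -1.14 for Fbn1 and -1.43 for Fbln1. All 7 were negative, as was the median over all promoter peaks of -0.43, and that median was -0.03 with TMM factors from promoter peaks, under which 1 of the 7 calls remained.

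At other peaks the value was -2.72 and -3.28 for a pair of Col27a1 intron peaks about 95.2 and 96.3 kb from the TSS, -2.20 for the Col15a1 exon peak and -1.68 for a Mmp2 peak 20.3 kb from the TSS. No group had more than 3 libraries, so single libraries were not tested as outliers.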

How the results depend on the processing

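The basal over luminal results kept their counts within 1.5 times under every alternative, except for single lower calls. The basal TEB over basal duct and interaction counts depended on scaling and on single libraries, and the cause was not tested. Basal TEB was shallow, which limits small differences at weak peaks.

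In basal TEB over basal duct, promoter peaks called higher were 2 with TMM factors from promoter peaks, loess offsets or GC-bin offsets and 1 with library totals, the expression filter or the quasi-likelihood test without a replicate block. Promoter peaks called lower were 2 with promoter TMM, 7 with the filter, 6 with DESeq2 and 4 with GC-bin offsets, and 0 to 15 with 1 library left out. Other peaks called higher were 26 with promoter TMM, 15 with the filter, 19 with quasi-likelihood without the block, 15 with the block, 20 with loess and 18 with GC-bin offsets, and 0 to 12 with 1 library left out. Other peaks called lower were 14, 28, 21 and 18 with promoter TMM, library totals, the filter and DESeq2, and 7 to 53 with 1 library left out.

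In luminal TEB over luminal duct, 1 promoter peak was higher with promoter TMM, library totals, the filter or loess offsets. Other peaks higher were 3 with promoter TMM or the filter, 0 with DESeq2, loess, GC-bin offsets or quasi-likelihood with or without the replicate block, and 0 in every fit with 1 library left out. In basal duct over luminal duct, promoter peaks lower were 2 with a 1000 bp window and 0 to 1 with 1 library left out. In basal TEB over luminal TEB, promoter peaks lower were 0 with the filter, DESeq2, loess, GC-bin offsets and quasi-likelihood with or without the block, and 0 to 1 with 1 library left out.

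In the interaction, promoter peaks lower were 4 with the replicate block, 3 with loess offsets or library totals and 1 with GC-bin offsets, promoter TMM or DESeq2, and 1 to 8 with 1 library left out. Other peaks higher were 4 with GC-bin offsets and 0 to 8 with 1 library left out. Other peaks lower were 14 with promoter TMM and 15 with DESeq2, and 12 to 43 with 1 library left out. The Col16a1 peak at 7.2 kb changed sign in basal TEB over basal duct, at 0.51 with loess offsets against -0.10. Of values for single peaks under the alternatives, 2868 kept their status as called or not called, 133 lost the call and 59 gained one. Changes of sign among values not called were not counted.

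Over all peaks, the share higher among those called was 45.8% in basal TEB over basal duct, against 90.2% with promoter TMM, 61.9% with library totals, 59.5% with the filter, 62.1% with DESeq2 and 58.2% with loess offsets. In luminal TEB over luminal duct it was 40.6%, against 80.1%, 55.5% with library totals, 4.45% with DESeq2 and 57.1% with loess offsets. In the interaction it was 53.8%, against 82.8% with promoter TMM and 68.0% with DESeq2. Promoter medians were shifted by promoter TMM to 0.02, 0.00 and 0.03 in basal TEB over basal duct, luminal TEB over luminal duct and basal duct over luminal duct, against -0.64, -0.15 and 0.35. The replicate block used the shared replicate numbers, and whether these mark shared pools of mice is not known. Same-numbered pairs had correlations of -0.0008 to 0.0792.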

Other observations

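Of 17 promoters of further proteases and inhibitors outside the list, 6 were called higher and 2 lower (Mmp13 and Mmp15) in basal TEB over luminal TEB. Over all genes with a promoter peak the shares were 9.32% and 14.9%. Adamts1, Adamts5 and Adamts9, which cleave proteoglycans, had log2 fold changes of 1.24, 1.36 and 1.01 in basal TEB over luminal TEB and of 1.59, 1.5 and 1.24 in basal duct over luminal duct. Ccn2, a matricellular protein gene, had 1.59 and 2.27, and Serpinh1, which encodes the collagen chaperone HSP47, had 1.74 and 1.78. All of these passed the edgeR exact test. Mmp13, the interstitial collagenase, was lower in basal cells in both structures, at -2.98 in TEBs and -2.0 in ducts. Its levels were near the floor, with means of 0.261 CPM in basal TEB and 0.456 in basal duct. The means were 2.61 CPM in luminal TEB and 2.03 in luminal duct. Mmp15, a membrane-bound metalloproteinase, had -0.71 in TEBs and -0.01 in ducts, the second of which was not called.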
